A study of Mus musculus with 6 samples.

Results

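The data described here are the levels of 10 marker genes of macrophages and other leukocytes in the developing mouse tooth, measured by RNA-seq. The genes were taken by symbol from a fixed list. This list and the other gene lists below were chosen with earlier results of these data known, so shares of calls in them are descriptions. All 10 genes were found among the 27506 genes of the count table and among the 19330 that passed the filter on low counts. Pulp tissue was collected from lower first molars at P3.5 (3.5 days after birth) from C57BL/6 mice, and 3 *Ror2fl/fl* control and 3 *Osr2-Cre;Ror2fl/fl* libraries were compared to learn which transcripts differ when *Ror2*, a receptor for Wnt ligands, is lost from the mesenchyme. Both groups carry the floxed *Ror2* alleles, and only the mutants are labelled with the Cre. According to the study's lineage tracing, the Cre acts in mesenchymal cells of the tooth and in the surrounding jaw bone while sparing the epithelium. The control labels carry a letter code that differs between control library 1 and control libraries 2 and 3 and is not explained. The sample numbers in the labels come from different series in controls and mutants, which are not explained either. A difference that goes with these series cannot be told apart from genotype. No source used here says whether a library is 1 animal or a pool, so p-values measure the spread between these libraries, which may be technical.

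Macrophages settle in the tooth during development, where they engulf dying cells and react to microbes. They share the surface phosphatase CD45 with all white blood cells and differ from them by receptors, lysosomal proteins and secreted products. C1q, which macrophages make in most tissues, is assembled from 3 chains encoded by neighbouring genes and starts the classical complement cascade. In bulk tissue, fewer cells of a type and less RNA per cell cannot be told apart.

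The 3 C1q genes lie side by side on chromosome 4 of mm10, all on the minus strand, *C1qb* from 136880129 to 136886187, *C1qc* from 136889804 to 136893065 and *C1qa* from 136895917 to 136898803. The RefSeq table of promoter windows (GRCm38.p6) matched 6 of the 10 genes by symbol, with 7 windows. The 250 bases before the start are printed for *C1qb* and *C1qc*, neighbours whose levels moved together, and for *Mrc1* and *Lyz2*, a surface receptor and a secreted enzyme whose levels did not. The windows are chr4:136886201-136886450 (minus strand) for *C1qb*, chr4:136892915-136893164 (minus strand) for *C1qc*, chr2:14229164-14229413 (plus strand) for *Mrc1* and chr10:117282273-117282522 (minus strand) for *Lyz2*. Each is written 5′ to 3′ on the strand of the gene, with capitals at every GAGGAA or its reverse complement TTCCTC, the purine-rich core recognised by PU.1, the myeloid transcription factor encoded by *Spi1*.
C1qb: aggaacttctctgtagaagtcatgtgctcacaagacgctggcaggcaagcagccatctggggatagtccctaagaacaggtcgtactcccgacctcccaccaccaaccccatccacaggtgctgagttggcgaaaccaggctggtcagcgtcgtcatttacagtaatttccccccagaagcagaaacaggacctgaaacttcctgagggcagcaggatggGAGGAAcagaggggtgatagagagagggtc
C1qc: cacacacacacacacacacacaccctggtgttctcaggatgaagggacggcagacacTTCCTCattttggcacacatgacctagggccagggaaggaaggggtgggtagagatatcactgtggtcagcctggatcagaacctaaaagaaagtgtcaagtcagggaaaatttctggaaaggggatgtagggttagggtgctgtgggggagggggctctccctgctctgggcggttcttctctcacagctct
Mrc1: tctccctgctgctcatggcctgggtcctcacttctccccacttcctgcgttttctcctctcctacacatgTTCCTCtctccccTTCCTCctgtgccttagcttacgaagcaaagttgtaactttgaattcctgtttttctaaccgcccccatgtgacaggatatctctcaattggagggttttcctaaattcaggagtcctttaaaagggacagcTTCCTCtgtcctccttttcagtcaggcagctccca
Lyz2: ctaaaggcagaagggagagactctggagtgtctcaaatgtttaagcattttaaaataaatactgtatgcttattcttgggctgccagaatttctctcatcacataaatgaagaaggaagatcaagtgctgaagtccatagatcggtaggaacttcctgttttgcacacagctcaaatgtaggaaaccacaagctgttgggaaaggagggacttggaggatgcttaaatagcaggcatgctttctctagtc
The core occurred on either strand in 5 of the 7 member windows and in 23.3% of all 32851 windows of this length. *Mrc1* held 3 copies, *C1qb* and *C1qc* 1 each and *Lyz2* none. A match describes the letters of the window and is not a bound site. *Spi1* itself had 4.52, 4.29 and 4.50 CPM (counts scaled to a common library size and composition) in control libraries and 7.27, 6.07 and 4.56 CPM in mutant libraries 1, 2 and 3. Its groups did not overlap, with mutant library 3 only just above control library 1, and the gene did not pass the test (log2 fold change 0.43, adjusted p = 0.129 from edgeR). Without mutant library 3 it did (0.59, adjusted p = 0.0275 from edgeR).

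The libraries held 56134770 to 62628940 estimated counts, and between 71 and 3594 counts lay behind each member in each library. *Ror2* fell in the mutants, from 36.2 to 38.2 CPM in controls to 26.3 to 28.1 CPM. Odontoblast and matrix transcripts expected of pulp were abundant, with 2515 to 7979 CPM for *Dspp* and 9883 to 37133 CPM for *Col1a1*. Transcripts of enamel epithelium were more abundant still, with 88628 to 160441 CPM for the enamel protein gene *Amelx* in material labelled dental pulp. Among all genes tested, 20.2% were called at a Benjamini-Hochberg adjusted p under 0.05 by the quasi-likelihood test of edgeR, 10.4% higher and 9.84% lower in mutants, and for 44.7% the control and mutant libraries did not overlap.

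Of the 10 markers, *Tyrobp* rose and *Adgre1* fell. These calls are 20% of the markers, close to the share of all genes. At an unadjusted p under 0.05 there were 4 markers, where 38.3% of all genes reached that. The libraries of the groups did not overlap for 3 of 10 or 30%, *C1qb* and *Tyrobp* higher (22.6% of all genes) and *Adgre1* lower (22.1%). The direction was mixed, with 6 markers higher and 4 lower in mutants, and the median log2 fold change was 0.31 against 0.01 over all genes tested. The summed level of all 10 was 146, 172 and 163 CPM in controls and 213, 164 and 133 CPM in mutant libraries. The highest and the lowest sum were both mutant libraries, so the groups overlapped (161 ± 13.2 against 170 ± 40.4 CPM, SD, n = 3 each). Mutant library 1 held the highest value of 5 of the markers, and the ratio of mutant to control means was 1.06 with it and 0.924 without it.

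**Figure D1:**
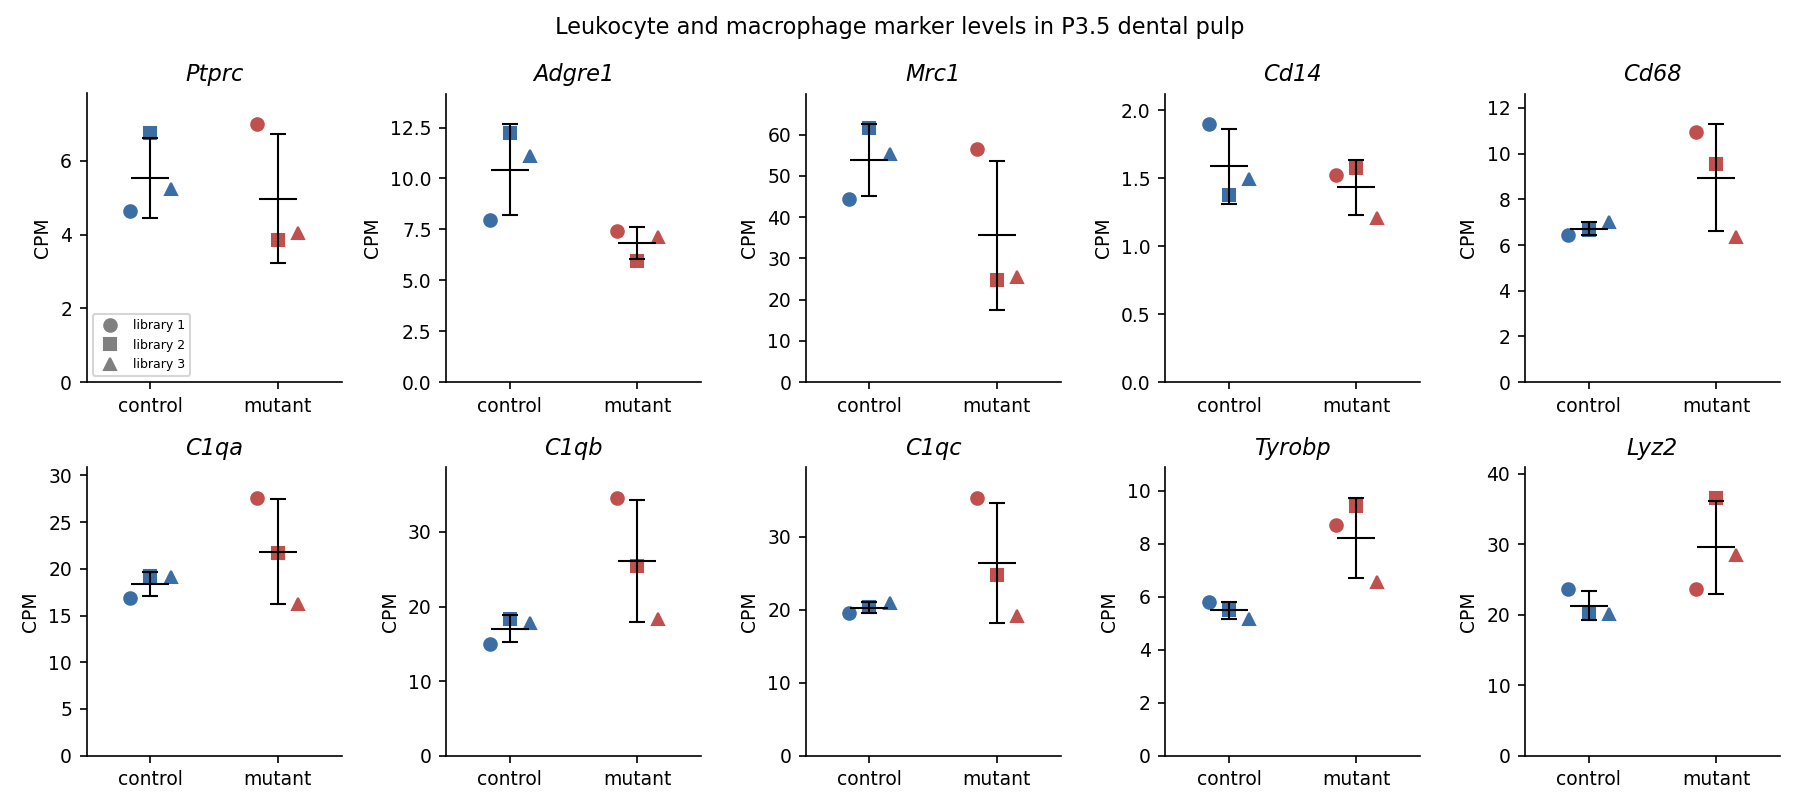
Level of each marker in CPM (vertical axis from 0) in 3 control (blue) and 3 mutant (red) libraries, with a symbol for each library number and black bars for mean ± SD. Control and mutant libraries are apart for *Adgre1*, *Tyrobp* and, narrowly, *C1qb*, and mutant library 1 stands above the other mutants for *Ptprc*, *Mrc1* and the C1q genes.

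*Ptprc* encodes CD45, the phosphatase found on all white blood cells. It had 4.63, 6.74 and 5.25 CPM in control libraries and 6.98, 3.86 and 4.05 CPM in mutant libraries. Mutant library 1 was the highest of the 6 and the other mutant libraries the lowest, so the groups overlapped. The log2 fold change was -0.16 with a 95% interval from -0.75 to 0.43 (adjusted p = 0.685 from edgeR), an interval that allows a change in either direction.

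*Adgre1* encodes F4/80, an adhesion receptor of mature mouse macrophages (ENSMUSG00000004730.15, chromosome 17 from 57358691 to 57483527, plus strand, mm10). It had 7.97, 12.2 and 11.1 CPM in control libraries and 7.44, 5.96 and 7.12 CPM in mutant libraries. Every mutant library was below every control library, although mutant library 1 and control library 1 were close. *Adgre1* fell by 34.5%, from 10.4 ± 2.21 to 6.84 ± 0.778 CPM (-0.61 ± 0.18 on the log2 scale, SE, with an adjusted p of 0.0476 from edgeR). An exact two-sided permutation test gave p = 0.1, the smallest that 3 against 3 libraries allow. The direction held in all 19 alternative fits, but the adjusted p-value from edgeR, limma or DESeq2 ran from 0.0134 to 0.186 and missed 0.05 in 13 of them, including -0.47 (adjusted p = 0.186) without control library 2, -0.56 (0.163) without control library 3, -0.67 (0.0736), -0.51 (0.0951) and -0.64 (0.0644) without mutant library 1, 2 or 3.

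*Mrc1* encodes CD206, a mannose receptor of tissue-resident macrophages that some endothelial cells also carry. Its level was 44.5, 61.7 and 55.3 CPM in control libraries and 56.5, 24.9 and 25.6 CPM in mutant libraries. Mutant library 1 lay within the control range and the other mutant libraries well below it. The log2 fold change of -0.59 (95% interval -1.29 to 0.11) was close to that of *Adgre1*, but the spread in mutants was wider and the test was not passed (adjusted p = 0.189 from edgeR). Without mutant library 1 it was -1.09 (adjusted p = 0.0103 from edgeR). The levels of *Mrc1*, *Adgre1* and *Ptprc* had the same order within each group as the summed level of 12 genes of pulp mesenchyme and odontoblasts. That sum was 16677, 48539 and 35300 CPM in controls and 37480, 14869 and 19558 CPM in mutant libraries. Most of the sum was *Col1a1*, with 11084, 37133 and 26565 CPM in controls and 28301, 9883 and 13010 CPM in mutant libraries. Not every gene of the list had this order. Among mutants, *Vim*, *Col3a1* and *Msx1* were lowest in library 3, while *Dspp* and *Pdgfra* were lowest in library 2. The part of tissue makeup in the marker levels was not tested.

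*Cd14* encodes the co-receptor that hands lipopolysaccharide to Toll-like receptor 4. It was the least abundant marker, with 1.89, 1.37 and 1.49 CPM in controls and 1.52, 1.58 and 1.20 CPM in mutant libraries. The groups overlapped and the log2 fold change was -0.15 (95% interval -0.67 to 0.38, adjusted p = 0.668 from edgeR). Among 11 genes of the Toll-like receptor pathway tested, 1 rose (10.4% of all genes tested did) and none fell. This was *Myd88*, the adaptor of the pathway, at 8.77, 10.1 and 8.84 CPM in controls and 15.0, 13.1 and 11.1 CPM in mutant libraries (log2 fold change 0.50, adjusted p = 0.0411 from edgeR). Leaving out any 1 library other than mutant library 3 raised the adjusted p-value of *Myd88* to between 0.0578 and 0.158. *Tlr4*, the receptor that CD14 serves, had 3.49, 4.65 and 4.37 CPM in controls and 3.67, 1.87 and 2.39 CPM in mutant libraries (-0.66, adjusted p = 0.102 from edgeR), and without mutant library 1 it passed the test (-0.96, adjusted p = 0.0373).

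*Cd68* encodes a lysosomal membrane protein of phagocytes. Its level was 6.46, 6.67 and 7.01 CPM in control libraries and 10.9, 9.53 and 6.37 CPM in mutant libraries. The controls were close together, mutant libraries 1 and 2 were above them and mutant library 3 was just below. The log2 fold change of 0.41 (95% interval -0.03 to 0.86) did not pass the test (adjusted p = 0.157 from edgeR), and without mutant library 3 it was 0.61 (adjusted p = 0.0179 from edgeR). Among 13 lysosomal genes 1 rose (10.4% of all genes tested did) and 3 fell (9.84%). *Npc2*, a cholesterol carrier of the lysosome lumen, rose from 278 ± 30.7 to 377 ± 11.2 CPM (adjusted p = 0.0345 from edgeR), whereas *Hexa*, a subunit of beta-hexosaminidase, fell from 55.1 ± 2.07 to 40.5 ± 3.97 CPM (adjusted p = 0.02 from edgeR). *Lamp2*, which coats the lysosomal membrane like CD68, fell from 255 ± 13.1 to 168 ± 27.6 CPM (adjusted p = 0.0224 from edgeR) and was at -0.18 on the log2 scale (adjusted p = 0.407) with an offset for GC content. All 3 of these calls were lost without control library 2 or 3 (adjusted p 0.0897 to 0.163 from edgeR), and those of *Npc2* and *Hexa* also without mutant library 1 (0.0773 and 0.057) and that of *Npc2* without mutant library 3 (0.0574).

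The C1q chains were higher on average in mutants and ranked the mutant libraries alike. *C1qa* had 16.9, 19.2 and 19.1 CPM in controls and 27.6, 21.7 and 16.3 CPM in mutant libraries. *C1qb* had 15.0, 18.3 and 17.8 CPM in controls and 34.6, 25.4 and 18.3 CPM in mutant libraries. *C1qc* had 19.5, 20.4 and 20.97 CPM in controls and 35.3, 24.7 and 19.1 CPM in mutant libraries. Each chain was highest in mutant library 1 and lowest among mutants in mutant library 3, which lay just under the controls for *C1qa* and *C1qc* and only just above them for *C1qb*. None passed the test. The log2 fold changes were 0.62 for *C1qb* (95% interval 0.13 to 1.10, adjusted p = 0.0723 from edgeR), 0.38 for *C1qc* (-0.08 to 0.84, adjusted p = 0.198) and 0.25 for *C1qa* (-0.17 to 0.66, adjusted p = 0.341). Without mutant library 3, *C1qb* (0.82, adjusted p = 0.0154 from edgeR) and *C1qc* (0.56, adjusted p = 0.0396) passed it, and in DESeq2's Wald test *C1qb* did (adjusted p = 0.0283).

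The balance between the chains was steadier than their levels. This ratio needs no scaling between libraries, and it was examined after the values of the single chains were known. *C1qa* made up 32.9%, 33.2% and 33.0% of the summed C1q counts in control libraries and 28.3%, 30.2% and 30.3% in mutant libraries. The 95% Wilson intervals of these shares, which cover counting error only, reached down to 31.3% in controls and up to 31.9% in mutants, from 3171 to 5762 C1q counts per library. *C1qb* made up 29.2%, 31.6% and 30.8% in control and 35.5%, 35.4% and 34.1% in mutant libraries. Each mutant library thus had less *C1qa* and more *C1qb* than any control, while the shares of *C1qc* overlapped. There were 0.887, 0.953 and 0.933 *C1qb* counts per *C1qa* count in control and 1.25, 1.17 and 1.13 in mutant libraries, 1.28 times as many (exact two-sided permutation test, p = 0.1, the smallest possible). The ratio to *C1qa* did not overlap between the groups for 25.0% of all genes tested. The chains are alike in merged exon length and in the base content of their longest transcript. These were 1040 bases and 59.5% GC for *C1qa* and 1088 bases and 57.4% GC for *C1qb*.

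**Figure D2:**
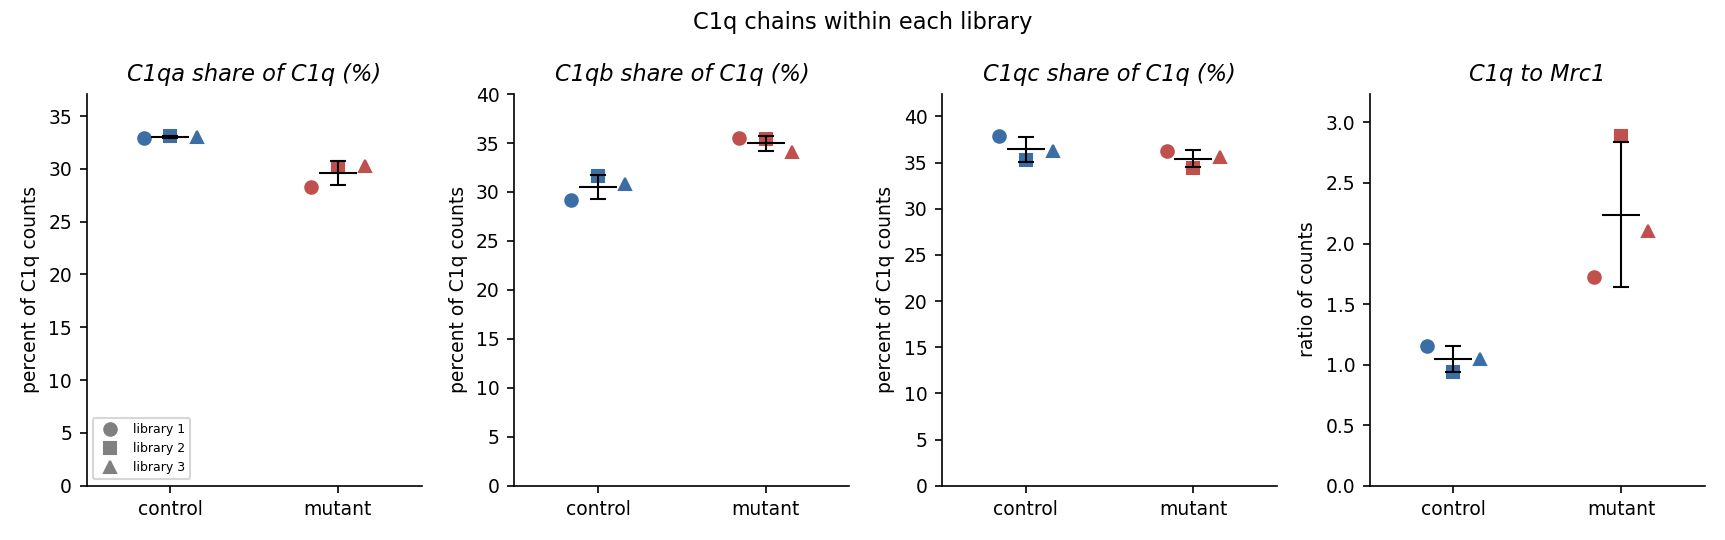
Share of each C1q chain in the summed C1q counts of a library (percent, axis from 0) and the ratio of summed C1q counts to *Mrc1* counts, in control (blue) and mutant (red) libraries with mean ± SD. The groups are apart for the shares of *C1qa* and *C1qb* and for the ratio to *Mrc1*, and overlap for the share of *C1qc*.

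C1q counts were also set against *Mrc1* counts within each library. The ratio of summed C1q counts to *Mrc1* counts was 1.16, 0.938 and 1.05 in control libraries and 1.72, 2.89 and 2.10 in mutant libraries, 2.14 times as high on average. The groups did not overlap (exact two-sided permutation test, p = 0.1, the smallest possible), as was so for the ratio to *Mrc1* of 20.7% of all genes tested. The ratio of *Mrc1* to *Adgre1* overlapped between the groups (5.20 ± 0.335 against 5.12 ± 2.16, SD, n = 3 each), while the ratio of *Mrc1* to *Ptprc* was 9.61, 9.15 and 10.5 in control and 8.09, 6.43 and 6.32 in mutant libraries. These ratios, too, were chosen after the levels were seen. The C1q genes have shorter exons and more GC than *Mrc1*, and with offsets for both properties in the fit the log2 fold changes were -0.13 for *C1qa*, 0.27 for *C1qb*, 0.05 for *C1qc* and -0.30 for *Mrc1*, closer together than without them (0.25, 0.62, 0.38 and -0.59).

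Of the other complement genes, 2 of 12 rose (10.4% of all genes tested did) and none fell. *Cfb*, a component of the alternative pathway, had 0.714, 0.635 and 0.583 CPM in controls and 2.69, 1.92 and 0.932 CPM in mutant libraries (log2 fold change 1.52, adjusted p = 0.0293 from edgeR). *C3*, on which the pathways converge, had 0.637, 0.309 and 0.486 CPM in controls and 1.15, 1.80 and 0.830 CPM in mutant libraries (1.39, adjusted p = 0.0402 from edgeR). Both were low in every library. They were higher in each mutant library than in any control, as was so for 22.6% of all genes tested. Both calls were lost without any 1 control library or mutant library 1 (adjusted p 0.0553 to 0.14 from edgeR), and that of *C3* without mutant library 2 (0.0782).

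*Tyrobp* encodes DAP12, the adaptor that passes on signals of activating receptors in myeloid and natural killer cells (ENSMUSG00000030579.10, chromosome 7 from 30413760 to 30417585, plus strand, mm10). It had 5.81, 5.51 and 5.17 CPM in control libraries and 8.69, 9.44 and 6.54 CPM in mutant libraries. The controls were close together and every mutant library was above them. *Tyrobp* rose by 49.7%, from 5.49 ± 0.321 to 8.23 ± 1.51 CPM (0.58 ± 0.16 on the log2 scale, SE, with an adjusted p of 0.0408 from edgeR and an exact permutation p of 0.1). The direction held in all 19 alternative fits, and the adjusted p-value missed 0.05 in 11 of them, with a range from 0.011 to 0.426 (edgeR, limma or DESeq2). These included 0.62 (adjusted p = 0.0741), 0.59 (0.137) and 0.54 (0.156) without control library 1, 2 or 3, and 0.54 (0.0926) and 0.48 (0.0764) without mutant library 1 or 2.

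Among 9 tested receptors, kinases and other partners of DAP12, 1 rose (10.4% of all genes tested did) and none fell. This was *Trem2*, a lipid-sensing receptor of macrophages that signals through DAP12, at 1.75, 2.30 and 2.38 CPM in controls and 3.72, 4.35 and 2.88 CPM in mutant libraries (0.77 ± 0.22 on the log2 scale, SE, with an adjusted p of 0.0416 from edgeR). *Lyn*, a kinase of the same signalling chain, had 11.01, 12.5 and 11.9 CPM in controls and 17.3, 14.9 and 13.5 CPM in mutant libraries (0.37, adjusted p = 0.071 from edgeR). For both genes, as for *Tyrobp*, the mutant libraries were all above the controls, as was so for 22.6% of all genes tested. *Fcer1g*, the sister adaptor that serves Fc receptors, likewise rose from 6.21 ± 0.333 to 11.3 ± 4.22 CPM (0.86, adjusted p = 0.0434 from edgeR). The calls of *Trem2* and *Fcer1g* were lost without any 1 library other than mutant library 3 (adjusted p 0.0579 to 0.128 from edgeR).

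*Lyz2* encodes the lysozyme of macrophages and neutrophils. Its level was 23.7, 20.2 and 20.1 CPM in control libraries and 23.6, 36.6 and 28.5 CPM in mutant libraries. Mutant library 1 was within the control range and mutant library 2 was the highest, unlike for the C1q genes. The log2 fold change of 0.47 (95% interval 0.10 to 0.85) did not pass the test (adjusted p = 0.0726 from edgeR). It passed without mutant library 1 (0.61, adjusted p = 0.0434 from edgeR) and in DESeq2's Wald test (adjusted p = 0.0391). *Lyz2* was the only member sharing stretches of 75 bases, the read length, with another gene, 5.96% of them with *Lyz1*, and with the counts of both summed it again did not pass the test (0.47, adjusted p = 0.0734 from edgeR).

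Neutrophil transcripts were, in sum, higher in every mutant library than in any control. The summed level of 12 neutrophil genes was 19.0, 4.55 and 5.86 CPM in control libraries and 63.4, 189 and 33.3 CPM in mutant libraries, highest in mutant library 2, where *Lyz2* and *Tyrobp* were highest too. For *Lyz2* the order otherwise differed. Mutant library 1 had a higher neutrophil sum than mutant library 3, while its *Lyz2* level was within the control range. *Tyrobp* ranked the mutant libraries as the neutrophil sum did (8.69, 9.44 and 6.54 CPM in mutant libraries 1, 2 and 3). Control libraries 2 and 3 were in the opposite order for *Tyrobp* and the neutrophil sum. Of 10 neutrophil genes tested, 4 rose (10.4% of all genes tested did) and none fell. This share describes a list chosen with earlier results of these data known, and enrichment was not tested. *S100a8*, a subunit of the neutrophil protein calprotectin, had 3.20, 0.635 and 0.842 CPM in controls and 20.7, 70.2 and 10.5 CPM in mutant libraries (4.42 ± 0.85 on the log2 scale, SE, with an adjusted p of 0.0126 from edgeR). *S100a9*, its partner, *Ngp*, a granule protein, and *Csf3r*, the receptor for granulocyte colony-stimulating factor, rose by 3.47, 3.55 and 0.90 on the log2 scale (adjusted p 0.0184 to 0.0394 from edgeR). Without control library 2 only *S100a8* of these passed the test and without control library 3 none did, when its log2 fold change was 4.13 (adjusted p = 0.0549 from edgeR). The call of *Csf3r* was also lost without control library 1 or mutant library 1 or 2 (adjusted p 0.0652 to 0.0762 from edgeR). The neutrophil-defining gene *Ly6g* was too low to be tested. The part of neutrophil transcripts in the levels of *Lyz2*, *Tyrobp* and *Ptprc*, which neutrophils also express, was not tested.

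**Figure D3:**
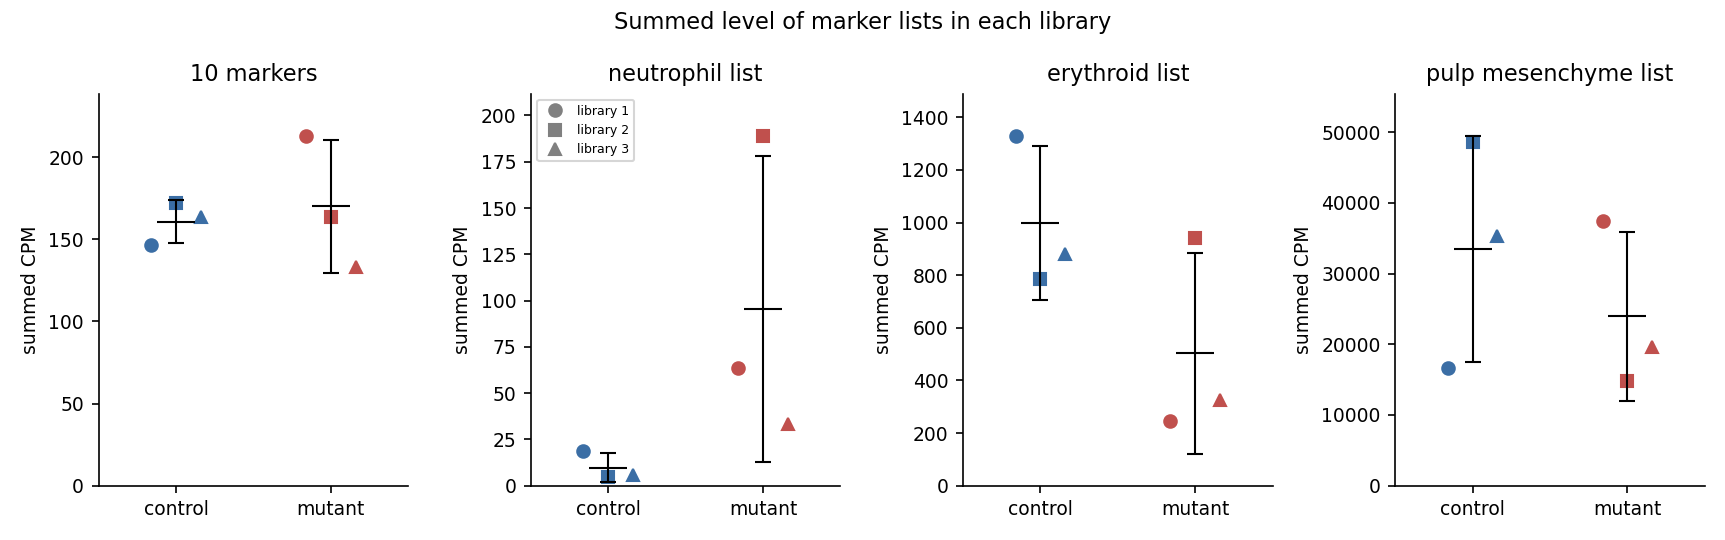
Summed level in CPM (vertical axes from 0) of the 10 markers, the neutrophil list, the erythroid list and the pulp mesenchyme and odontoblast list, in control (blue) and mutant (red) libraries with mean ± SD and a symbol for each library number. The neutrophil sum is above the controls in each mutant library, and the other sums overlap between the groups.

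A second list held 30 other macrophage genes, of which 29 were tested. In mutants 3 rose (10.4% of all genes tested did) and 4 fell (9.84%), and the median log2 fold change was 0.17. The genes that fell were *Lyve1*, *Pf4*, *Cx3cr1* and *Stab1*. *Lyve1*, a hyaluronan receptor of perivascular macrophages and lymphatic endothelium, had 5.82, 6.06 and 5.41 CPM in controls and 1.27, 1.70 and 2.10 CPM in mutant libraries. Every mutant library lay far below the controls, at -1.77 ± 0.21 on the log2 scale (SE, with an adjusted p of 0.0017 from edgeR), and this call held in all 19 alternative fits with log2 fold changes from -1.96 to -1.28. *Prox1* and *Flt4*, lymphatic endothelial genes looked up after this value was seen, did not pass the test. *Prox1* had 1.02 ± 0.199 against 0.631 ± 0.0873 CPM (log2 fold change -0.70, adjusted p = 0.102 from edgeR), and every mutant library was below every control library. *Flt4* had 11.3 ± 2.14 against 9.64 ± 1.77 CPM (-0.23, adjusted p = 0.391 from edgeR), and its groups overlapped. None of 9 endothelial genes passed the test (median log2 fold change 0.02), and with an offset for GC content 1 did, *Emcn*, with a median of -0.19.

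*Pf4*, a chemokine of platelets and of resident macrophages, fell from 7.26 ± 0.650 to 4.13 ± 0.700 CPM (log2 fold change -0.81, adjusted p = 0.0149 from edgeR). *Cx3cr1*, the fractalkine receptor of resident macrophages and monocytes, fell from 23.6 ± 1.48 to 17.4 ± 0.524 CPM (-0.44, adjusted p = 0.0189 from edgeR). *Stab1*, a scavenger receptor of the same cells and of some endothelium, had 48.6, 66.7 and 65.1 CPM in controls and 41.6, 46.7 and 41.9 CPM in mutant libraries (-0.47, adjusted p = 0.0417 from edgeR). Mutant and control libraries did not overlap for any of the 4, as was so for 22.1% of all genes tested, lower in mutants. These 4 had already been picked by the test, so this adds no separate support. The calls of *Pf4*, *Cx3cr1* and *Stab1* were lost without control library 2 or 3 (adjusted p 0.0727 to 0.16 from edgeR), those of *Cx3cr1* and *Stab1* without mutant library 1 (0.051 and 0.0978) and that of *Stab1* without mutant library 3 (0.0749). *Folr2*, a folate receptor of resident macrophages, was at -1.09 (adjusted p = 0.0543 from edgeR). The genes that rose were *Trem2*, *Fcer1g* and *Cd52*, a small glycoprotein of lymphocytes and macrophages, whose call (0.92, adjusted p = 0.0447 from edgeR) was likewise lost without any 1 library other than mutant library 3 (0.0631 to 0.167). *Csf1r*, the growth factor receptor that macrophages depend on, had 43.7 ± 5.83 CPM in controls and 37.9 ± 5.35 CPM in mutant libraries (-0.21, adjusted p = 0.306 from edgeR).

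**Figure D4:**
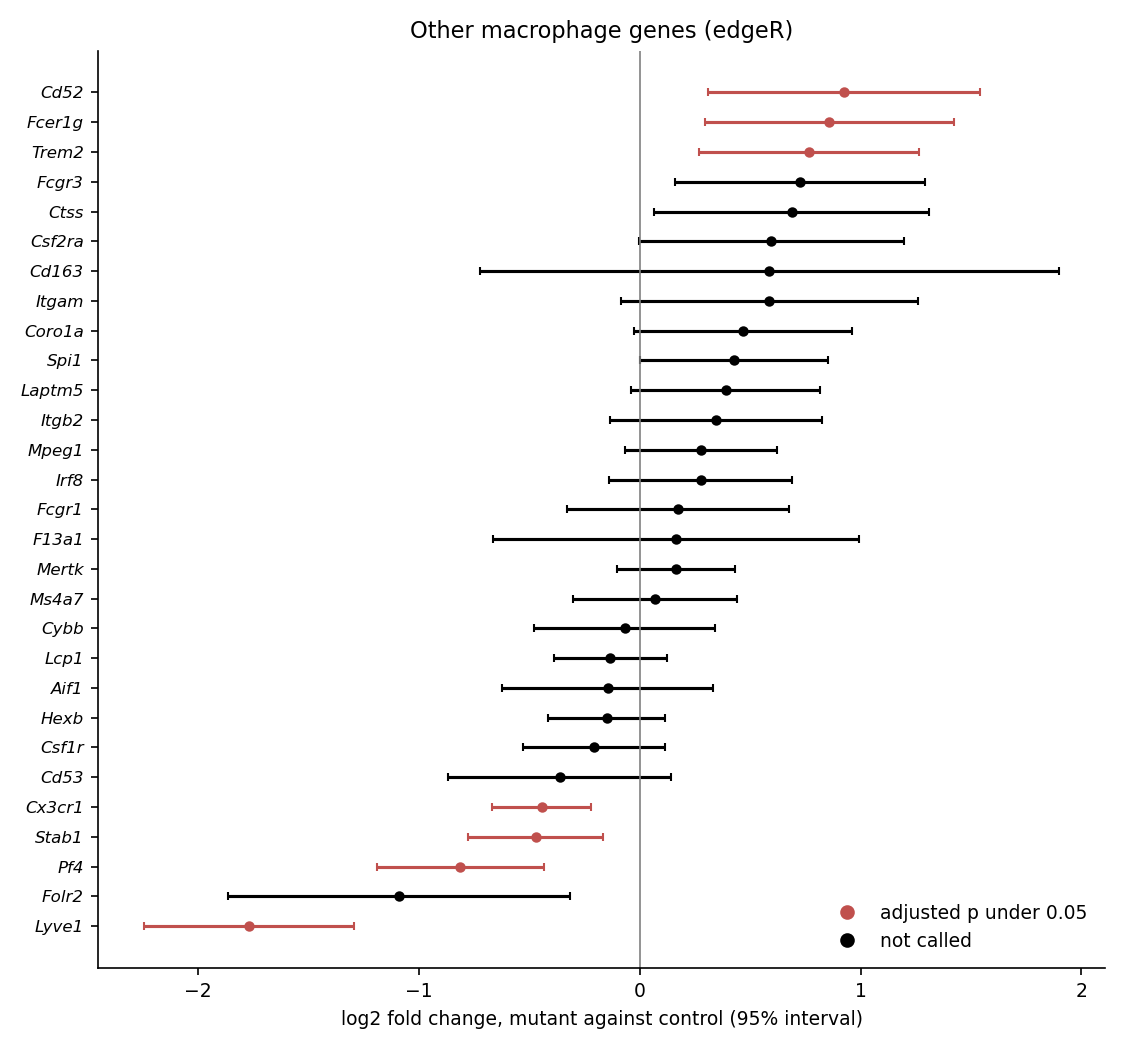
Log2 fold change of the 29 other macrophage genes tested, mutant against control (horizontal axis), with 95% intervals from edgeR. Genes in red had an adjusted p-value under 0.05: *Cd52*, *Fcer1g* and *Trem2* to the right of 0 and *Cx3cr1*, *Stab1*, *Pf4* and *Lyve1* to the left, with *Lyve1* farthest from 0 at -1.77.

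Of 12 genes for monocytes and their recruitment that were tested, 1 fell (9.84% of all genes tested did) and none rose. *Cxcl12*, a stromal chemokine that retains blood cells, was at 52.6, 73.2 and 76.9 CPM in controls and 46.1, 49.4 and 42.6 CPM in mutant libraries (log2 fold change -0.55, adjusted p = 0.0352 from edgeR). Its call was lost without control library 2 or 3 or mutant library 1 or 3 (adjusted p 0.0698 to 0.141 from edgeR). *Csf1*, the growth factor for macrophages, had 19.4, 25.4 and 25.2 CPM in controls and 20.8, 17.2 and 14.7 CPM in mutant libraries and did not pass the test (-0.41, adjusted p = 0.0972 from edgeR). The direction over the list was mixed, with 6 genes higher and 6 lower in mutants. *Ccl9*, of the same list, had 0.823, 0.549 and 0.534 CPM in controls and 3.25, 1.37 and 0.813 CPM in mutant libraries. Its groups overlapped and it did not pass the test either (1.51, adjusted p = 0.0633 from edgeR).

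Across all genes tested, fold changes ran with the length and base content of the transcripts, and the markers are unevenly spread over both. Among the 3866 tested genes with the shortest merged exons (up to 1343 bases), the median log2 fold change was 0.23, and *Cd68*, the C1q genes, *Tyrobp* and *Lyz2* belong to this group. Among the 3864 longest (from 4994 bases), which include *Ptprc* and *Mrc1*, it was -0.22. Genes with the least GC had a median of -0.29 and those with the most 0.23. *Adgre1* lies between these ends, in groups of genes with medians of 0.04 by length and -0.12 by GC content. With an offset for GC content in the fit, *Adgre1* was at -0.56 (adjusted p = 0.0641 from edgeR), *Tyrobp* at 0.41 (0.10), *C1qb* at 0.41 (0.206), *Lyz2* at 0.49 (0.09) and *Lyve1* at -1.67 (0.0018). With offsets for GC content and exon length together, *Adgre1* was at -0.53 (adjusted p = 0.0706 from edgeR), *Tyrobp* at 0.18 (0.426), *C1qb* at 0.27 (0.433), *Lyz2* at 0.35 (0.121) and *Lyve1* at -1.68 (0.0017). No marker of the 10 passed the test with either offset. The other macrophage genes that rose no longer passed it either, while *Lyve1*, *Pf4* and *Cx3cr1* did with both.

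**Figure D5:**
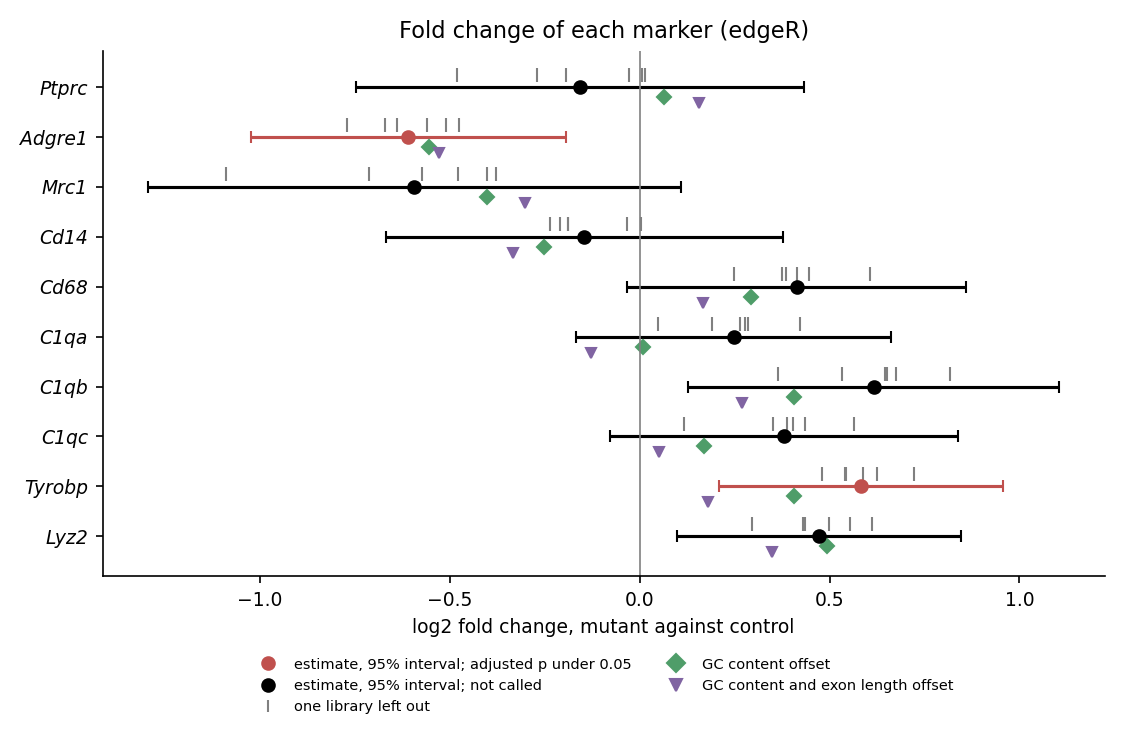
Log2 fold change of each marker, mutant against control (horizontal axis), with its 95% interval from edgeR (red where the adjusted p-value was under 0.05), the fits without 1 library (grey ticks) and the fits with offsets for GC content (green) and for GC content and exon length (violet). With both offsets *Tyrobp* lies at 0.18 and *C1qa* at -0.13, while *Adgre1* stays at -0.53.

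Only levels per length, here counts per kilobase of exon scaled to library size (RPKM), allow the markers to be compared with each other. In controls the order was *C1qa* (17.7 ± 1.24 RPKM), *C1qc* (16.9 ± 0.616), *Lyz2* (16.2 ± 1.55), *C1qb* (15.7 ± 1.63), *Mrc1* (10.01 ± 1.62), *Tyrobp* (9.74 ± 0.569), *Cd68* (5.34 ± 0.222), *Adgre1* (3.22 ± 0.684), *Ptprc* (1.08 ± 0.212) and *Cd14* (0.966 ± 0.167). The ranges of the first 4 overlapped from neighbour to neighbour, as did those of *Mrc1* and *Tyrobp* and of *Ptprc* and *Cd14*. In mutants *C1qb* was first with 24.0 ± 7.49 RPKM, *Tyrobp* (14.6 ± 2.67) stood above *Cd68* (7.11 ± 1.86) and *Mrc1* (6.63 ± 3.36), and *Adgre1* (2.11 ± 0.240), *Ptprc* (0.970 ± 0.342) and *Cd14* (0.874 ± 0.123) were again last. The secreted products were thus the most abundant of these transcripts per length and CD45 and CD14 the least.

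Across the 6 libraries, the genes whose log2 CPM most resembled the mean standardized level of the 10 markers were *Fcgr1*, the high-affinity Fc receptor (Pearson's r = 0.994), *C5ar1*, the receptor for the complement fragment C5a (0.993), and *Lrrc25*, a leucine-rich repeat protein of leukocytes (0.993). *Adcyap1r1*, *Catip*, *Gpatch2*, *Scarb1*, *Borcs6*, *Ms4a4a* and *Rragc* followed, down to 0.976. These are descriptions over 6 libraries that share their tissue makeup with the markers. *Fcgr1* had 2.95, 3.17 and 3.16 CPM in controls and 4.40, 3.55 and 2.51 CPM in mutant libraries, so that it was highest in mutant library 1 and lowest in mutant library 3, like *C1qa* and *C1qc*.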

How the data were processed

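Total RNA of dental pulp was sequenced in 3 *Ror2fl/fl* control and 3 *Osr2-Cre;Ror2fl/fl* libraries at P3.5. The authors deposited estimated counts per gene without normalization, and a table of normalized signal, where 1 was added to the estimated count before scaling by a factor for the library. The methods name TopHat, the mm10 genome and counting over exons, whereas the submitters' processing notes list STAR 2.6.1d and Partek. How reads matching several genes or strand were handled is not given in the sources used here. The table holds 6 columns of other samples, which were not used.

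Estimated counts were rounded, since the planned test takes whole counts. Libraries were scaled by TMM, filtered with filterByExpr and tested by edgeR's quasi-likelihood method, unblocked, and p-values were adjusted by Benjamini-Hochberg across the 19330 genes kept (R 4.3.3, edgeR 4.0.16, limma 3.58.1, DESeq2 1.42.0). CPM used TMM-scaled library sizes. Single values were compared by exact two-sided permutation. Totals of 56134770 to 62628940 counts leave counting error small beside the biological coefficient of variation of 18.7% for all but the lowest genes.

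GENCODE M21 gave positions and, from the longest transcript of a gene in its basic set, GC content. Merged exons of the basic set gave lengths. RPKM was computed from these lengths. Offsets for GC content and exon length were smooth curves fitted for each library. Promoter windows came from RefSeq on GRCm38.p6.

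Alternatives were DESeq2's Wald test, limma voom, DESeq2's size factors, unscaled library sizes, no filter or a stricter one on low counts, the replicate number as a block, a GC content offset, the normalized table with pseudocounts of 1 and 0.1, sums of genes sharing sequence and leaving out each library. Offsets for exon length and the repeats for other gene lists were added after seeing the data.

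The markers and all gene lists were chosen with earlier results of these data known. Genes named from the lists come from the 3 with the smallest p-value of each list, not all of which are named. *Stab1*, *Fcer1g*, *Cd52*, *Folr2*, *Csf1r*, *Spi1*, *Csf3r*, *Ly6g*, *Il1b*, *Tnf*, *Dspp*, *Col1a1*, *Prox1* and *Flt4* were added to these after their values were seen. *Vim*, *Msx1*, *Lck* and *Cd3e* were added in the same way. The 10 genes most like the markers were those with the highest Pearson correlation over the 6 libraries.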

Additional observations from a re-analysis of the deposited data

How the results depend on the processing

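Leaving out 1 library at a time gave 0 to 4 markers past the threshold in place of 2, and 909 to 5007 genes in place of 3906. The markers past it were *Mrc1* and *Lyz2* without mutant library 1, and *Cd68*, *C1qb*, *C1qc* and *Tyrobp* without mutant library 3. The count of markers was 4 in DESeq2's Wald test, 1 each with limma voom, library size alone, no filter on low counts and the normalized table with a pseudocount of 0.1, and 0 with the offsets for GC content, for exon length and for both and with a pseudocount of 1. Library size alone moved the higher calls to 1644 of 3714 genes, against 2003 of 3906. Of 190 results for single markers over the alternatives, 153 kept direction and side of the threshold and 6 reversed direction, all for markers not past it. These were *Ptprc* with the GC content offset (0.065 on the log2 scale), with both offsets (0.16) and without control library 2 (0.015) or mutant library 2 (0.0066), in a range from -0.48 to 0.015 without 1 library, *Cd14* without control library 1 (0.0026, in a range from -0.24 to 0.0026), and *C1qa* with both offsets (-0.13). The summed marker level in mutants stayed at 0.924 to 1.17 times that in controls, and the ratio of *C1qb* to *C1qa* at 1.24 to 1.31 times, in the fits without 1 library. Of the other macrophage genes, 1 to 11 passed the threshold over these fits and 0 to 8 of the neutrophil genes did, in place of 7 and 4. Same-numbered libraries did not deviate together (correlations -0.1, -0.08 and -0.0037), and not every library correlated best with its own number. The study's methods mention 3 pairs of samples without saying how the pairs were formed. With so few libraries these correlations show no pairing by number but cannot exclude it. With the replicate number as a block, 0 markers and 2013 genes passed the threshold. The causes of these shifts were not tested beyond the construction of each alternative. Depth limits *Cd14* most, with the fewest counts of the markers.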

Other observations

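Transcripts of other blood cells differed unevenly between the groups. Of all genes tested, 10.4% rose and 9.84% fell. *Cd3g* and *Cd247*, subunits of the T cell receptor complex, were the only genes called among the 4 T and NK cell genes that could be tested. *Cd3g* had 0.450, 0.326 and 0.308 CPM in controls and 0.829, 0.711 and 1.63 CPM in mutant libraries (log2 fold change 1.54, adjusted p = 0.0312 from edgeR). *Cd247* had 0.217, 0.103 and 0.227 CPM in controls and 0.829, 0.763 and 0.339 CPM in mutant libraries (1.80, adjusted p = 0.0323 from edgeR). Among mutants, library 3 thus had the most *Cd3g* and the least *Cd247*. *Cd4* and *Lck* were not called, and *Cd3e*, of the same receptor complex, was too low to be tested. In the mast cell list 1 of 6 genes rose, *Hdc*, which makes histamine, with 0.109, 0.154 and 0.194 CPM in controls and 0.558, 0.520 and 0.339 CPM in mutant libraries (1.62, adjusted p = 0.0251 from edgeR). All 3 calls were lost without any 1 control library (adjusted p 0.0568 to 0.122 from edgeR), those of *Cd247* and *Hdc* without mutant library 1 (0.0802 and 0.0603) and that of *Cd247* without mutant library 2 (0.0587). None of 6 B cell genes, 9 dendritic cell and MHC class II genes and 9 osteoclast genes passed the test, where *Oscar*, an osteoclast receptor, had 0.189 ± 0.0594 against 0.381 ± 0.0393 CPM.

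The summed level of the erythroid list was 1331, 784 and 880 CPM in controls and 245, 942 and 324 CPM in mutant libraries, so mutant libraries 1 and 3 were low and mutant library 2, the one with the most neutrophil transcripts, was within the control range. Of its 7 genes 2 fell and none rose. *Hba-a1*, an alpha-globin gene, had 380.4, 156 and 179.7 CPM in controls and 25.7, 80.6 and 31.4 CPM in mutant libraries (log2 fold change -2.38, adjusted p = 0.0161 from edgeR), and its call held in all 19 alternatives (highest adjusted p 0.0499 from edgeR). Its value is uncertain, since reads could be split with its near-identical copy *Hba-a2*, which did not pass the test (log2 fold change -0.93, adjusted p = 0.137 from edgeR), and the counts of the pair were not summed. *Alas2*, the erythroid enzyme that starts haem synthesis, fell from 16.6 ± 4.81 to 5.26 ± 3.44 CPM (log2 fold change -1.66, edgeR). Among 6 inflammatory genes tested, *Chil3*, a chitinase-like protein of myeloid cells, rose (0.217, 0.0858 and 0.113 CPM in controls and 1.37, 1.92 and 0.237 CPM in mutant libraries). *Il1b* and *Tnf* were too low to be tested. Of 12 genes of pulp mesenchyme and odontoblasts, *Col3a1* fell from 1132 ± 233 to 740.1 ± 61.3 CPM, and none of 9 dental epithelium genes passed the test. Leaving out 1 library lost the call of *Alas2* for each library other than mutant library 2 (adjusted p 0.0589 to 0.0848 from edgeR), that of *Chil3* for each other than mutant library 3 (0.0553 to 0.101) and that of *Col3a1* for each other than control library 1 (0.06 to 0.171).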
